A study of Mus musculus with 8 samples.

Results

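The COP9 signalosome (CSN) subunits were followed by symbol through RNA-seq of mouse LT-HSCs. The 9 genes are Gps1 (which encodes CSN1), Cops2, Cops3, Cops4, Cops5, Cops6, Cops7a, Cops7b and Cops8, out of 54749 genes with a counted transcript. All 9 passed the filter on low counts and were tested among 21902 genes. The libraries came from bone marrow of 4 homozygous asrij floxed mice (replicates 1, 3, 4 and 5) and 4 asrij whole-body knockout (KO) mice (replicates 2, 3, 4 and 5), 1 library per mouse, with an age of 6 months in the labels. Mice of both genders were used in the study, and no label gives the sex of a library. The floxed mice carry the floxed allele and are the controls here. The knockout is of the whole body, so the stem cells and the marrow around them lacked the gene together. The study's methods sorted the cells for RNA as LSK CD150+ CD48+, whereas its other LT-HSC assays name CD48-, the usual gate for LT-HSCs. Which gate gave these libraries is not settled by the sources, and the name LT-HSC is kept from the labels. Asrij is the mouse gene Ociad1, which encodes an OCIA domain protein of mitochondria and endosomes.

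The CSN is a multisubunit complex that removes the ubiquitin-like protein NEDD8 from cullins, the scaffolds of the largest family of ubiquitin ligases. Cullins are switched on by NEDD8 and need its removal to exchange substrate receptors, so the complex takes part in the turnover of many proteins. It is also known in the p53 pathway, because kinases bound to the complex modify p53 and its subunit CSN5 has been tied to p53 export and degradation. Whether the transcripts of the complex differ in LT-HSCs without asrij is the question that the comparison of genotypes addresses for these genes.

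Levels are given as CPM, the usual depth-scaled count, with library sizes scaled by TMM. Gene counts summed to between 23412829 and 44874882 per library, and a CSN gene had between 278 and 3059 counts in a library. Values are listed by replicate number, 1, 3, 4 and 5 for floxed libraries and 2, 3, 4 and 5 for KO libraries. Ociad1 had 41.6, 66.9, 36.7 and 31.3 CPM in floxed libraries and 15.2, 19.7, 12.5 and 11.7 CPM in KO libraries. The groups did not overlap, and Ociad1 fell by 1.58 on the log2 scale (SE 0.27, adjusted p = 0.0249, edgeR's quasi-likelihood test with Benjamini-Hochberg adjustment). This call was lost without floxed replicate 1 or KO replicate 2, 4 or 5 (adjusted p between 0.0759 and 0.0881) and in the 6 libraries numbered 3 to 5 without a replicate block (adjusted p = 0.218; 0.0289 with it), while the log2 fold change stayed between -1.75 and -1.29 with any 1 library left out. The counts on haemoglobin genes made up between 2.85% and 7.67% of gene counts in floxed and between 12.2% and 24.3% in KO libraries. Of 10 stem cell markers, Procr and Hoxb5 were under 1 CPM in every library, and the summed level of the list was between 87.0 and 94.1 CPM in floxed and between 84.1 and 99.7 CPM in KO libraries. The 10 myeloid markers summed to between 10276 and 24356 CPM in floxed and between 10368 and 17539 CPM in KO libraries, and the 11 erythroid markers found to between 27926 and 70512 and between 122364 and 295105 CPM. Myeloid and erythroid markers were thus abundant in each library. Megakaryocyte and platelet markers summed to 156 to 246 CPM in floxed and 318 to 378 CPM in KO libraries, without overlap. T and NK cell markers were lower in KO, at 69.2 to 76.5 against 94.0 to 122 CPM. B cell and plasma cell markers overlapped, at 1662 to 3344 CPM in floxed and 1444 to 1748 CPM in KO. In bulk RNA fewer cells of a type and less RNA per cell cannot be told apart.

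Across the genotypes, none of the 9 CSN genes passed the test. In the fit over all genes 651 genes were called at an adjusted p under 0.05 (2.97% of those tested) and 261 of them also had an absolute log2 fold change above 1.5 (1.19%), and 0 of the 9 were among either. At an unadjusted p under 0.05 edgeR's test gave 0 of the 9 genes too, beside 21.8% of all genes. DESeq2, which called 11.2% of all genes at an adjusted p under 0.05, and limma-voom, which called 2.21%, gave 0 of the 9, also at an unadjusted p under 0.05, which 23.6% of all genes reached with DESeq2 and 22.0% with limma-voom. The log2 fold changes (KO minus floxed) lay between -0.15 and 0.33 with a median of -0.001, and the median over all genes tested was -0.006. The levels of KO and floxed libraries overlapped for every one of the 9. They overlapped for most genes tested too, with no overlap for 14.8% of all. The 95% intervals of the 9 log2 fold changes all included 0. The narrowest was that of Cops7a, from -0.19 to 0.49, and the widest that of Cops6, from -0.40 to 0.97.

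**Figure D1:**
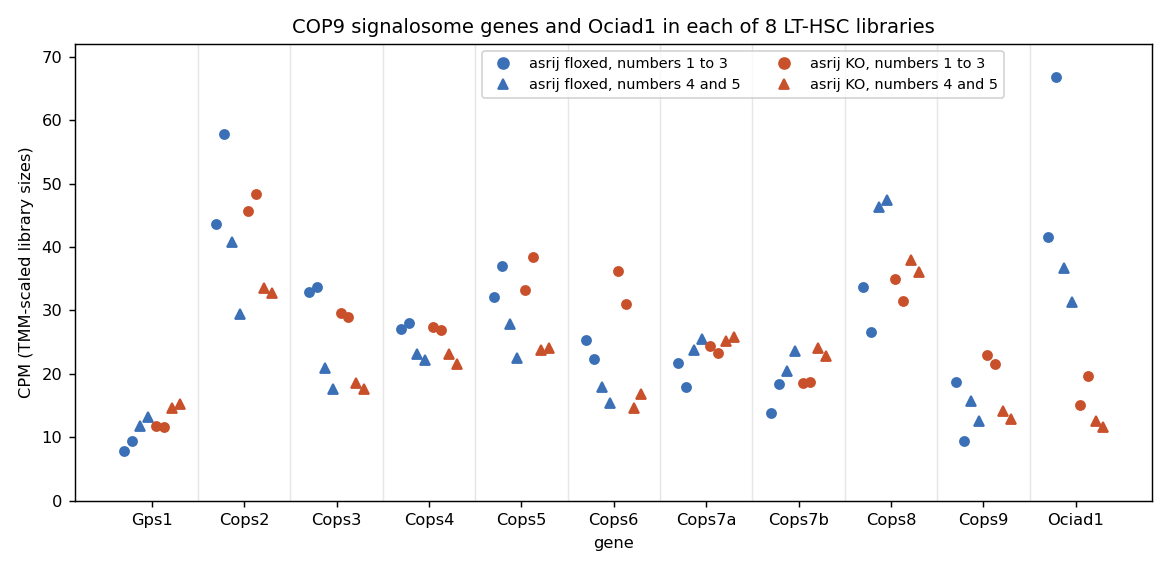
CPM (vertical axis, linear, TMM-scaled library sizes) of the 9 CSN genes, Cops9 and Ociad1 in each library, with floxed in blue and KO in orange, circles for libraries numbered 1 to 3 and triangles for 4 and 5. Blue and orange points are mixed for each CSN gene and apart for Ociad1. The values of circles and triangles do not overlap for 8 of the 9 CSN genes, though those of Gps1 nearly touch (11.7 against 11.8 CPM).

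Cops5 encodes CSN5, the metalloprotease that cuts NEDD8 from cullins, and its MPN domain is the catalytic one. It lies on the minus strand at chr1:10024601-10038168 (GRCm38). Its level was 32.1, 37.1, 27.8 and 22.6 CPM in the floxed and 33.2, 38.4, 23.8 and 24.1 CPM in the KO libraries. The means were 29.9 ± 6.17 CPM (SD, n = 4) and 29.9 ± 7.17 CPM, and replicates 4 and 5 were the lowest in both genotypes. The log2 fold change was -0.001 (SE 0.22, adjusted p = 0.998, edgeR), with a 95% interval from 0.714-fold to 1.40-fold. Of the 50-base stretches of its transcript, 5.58% also occur in transcripts of Cspp1, which begins beside it on the other strand.

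Cops6 encodes CSN6, the second MPN domain protein, which pairs with CSN5 and has no protease activity of its own. The gene is at chr5:138161071-138164646 on the plus strand. It was measured at 25.3, 22.4, 17.9 and 15.4 CPM in the floxed and at 36.2, 31.1, 14.6 and 16.8 CPM in the KO libraries. The KO libraries thus held both the highest and the lowest values, and the log2 fold change of 0.29 had the largest error of the 9 genes (SE 0.31, adjusted p = 0.641, edgeR). On leaving out 1 library it ranged from 0.063 without KO replicate 2 to 0.50 without KO replicate 4. Within the libraries numbered 1 to 3 the difference between genotype means of log2(CPM + 1) was 0.48, and within those numbered 4 and 5 it was -0.08. The counted span shares 64 bases at its 3′ end with Mcm7 on the opposite strand, which had 286% of the total count of Cops6. With a Cops6 transcript clear of Mcm7, chosen after seeing the data, the log2 fold change was 0.11 (adjusted p = 0.888).

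Cops2, Cops3 and Cops4 encode PCI domain subunits, the part of the complex that holds the others together. Cops2 (CSN2, which contacts the cullin; minus strand of chr2:125830304-125859139) was at 43.7, 57.9, 40.7 and 29.4 CPM in the floxed and at 45.7, 48.4, 33.5 and 32.8 CPM in the KO libraries. Floxed replicates 3 and 5 were the highest and lowest of the 8, so KO lay within the floxed range, and the log2 fold change was -0.10 (SE 0.23, adjusted p = 0.842). Cops3 (CSN3; minus strand of chr11:59817795-59839838) was at 32.9, 33.7, 21.0 and 17.7 CPM in floxed and 29.6, 28.9, 18.6 and 17.6 CPM in KO libraries. Replicates 4 and 5 were the lower pair in both genotypes, and the log2 fold change was -0.15 (SE 0.27, adjusted p = 0.790). Cops3 overlaps Nt5m by 392 bases and the antisense gene Gm16062 by 697 bases, and 14.1% of its 50-base stretches also occur in transcripts of these genes, so its reads are partly shared. With a Cops3 transcript clear of these genes, chosen after seeing the data and holding 53.8% of its count, the log2 fold change was -0.35 (adjusted p = 0.526). Cops4 (CSN4; plus strand of chr5:100518309-100547803) was at 27.1, 28.1, 23.1 and 22.2 CPM in floxed and 27.4, 27.0, 23.1 and 21.6 CPM in KO. It was the steadiest of the 3, with a log2 fold change of -0.02 (SE 0.15, adjusted p = 0.962) and a 95% interval from 0.777-fold to 1.25-fold.

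Cops8 encodes CSN8, the smallest of the PCI subunits named here, and lies at chr1:90602981-90613341 on the plus strand. It was at 33.6, 26.6, 46.3 and 47.4 CPM in the floxed and at 35.0, 31.5, 38.0 and 36.1 CPM in the KO libraries. All KO values fell inside the floxed range, and the log2 fold change was -0.13 (SE 0.20, adjusted p = 0.755). The difference between genotypes in log2(CPM + 1) was 0.15 within numbers 1 to 3 and -0.33 within numbers 4 and 5, opposite in sign, and the difference between these values was not tested.

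Cops7a (minus strand of chr6:124958413-124965538) and Cops7b (plus strand of chr1:86582904-86609375) encode alternative versions of CSN7, which take the same place in the complex. Cops7a was at 21.8, 17.9, 23.8 and 25.6 CPM in floxed and 24.4, 23.3, 25.3 and 25.9 CPM in KO libraries, with a log2 fold change of 0.15 (SE 0.15, adjusted p = 0.617). Cops7b was at 13.8, 18.4, 20.5 and 23.7 CPM in floxed and 18.6, 18.7, 24.1 and 22.8 CPM in KO libraries, with a log2 fold change of 0.14 (SE 0.19, adjusted p = 0.727). The lowest value of both genes was in a floxed library, replicate 3 for Cops7a and replicate 1 for Cops7b. Per kilobase of spliced transcript, Cops7a counts exceeded those of Cops7b by between 3.95 and 6.39 times in every library. The log2 ratio of Cops7b to Cops7a per kilobase was -2.26 ± 0.30 (SD, n = 4) in floxed and -2.26 ± 0.14 in KO, and the difference of -0.004 had p = 1 in the exact two-sided permutation test, whose smallest possible p is 0.0286.

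Gps1 encodes CSN1, a PCI subunit, and lies on the plus strand at chr11:120784272-120789102. It was at 7.83, 9.46, 11.8 and 13.3 CPM in the floxed and at 11.7, 11.6, 14.6 and 15.2 CPM in the KO libraries. The log2 fold change of 0.33 (SE 0.21) was the largest of the 9 and did not pass the test (adjusted p = 0.395). The value of Gps1 is uncertain, because 69.4% of the 50-base stretches of its transcript also occur in the processed pseudogene Gm9816, a single exon of 1414 bases on the plus strand of chr16:62717037-62718450. Gm9816 was counted more often than Gps1 in every library, at 30.2, 24.4, 42.9 and 53.2 CPM in floxed and 23.5, 20.5, 41.2 and 40.5 CPM in KO libraries. Reads of this shared sequence cannot be told apart, and counting both genes together, chosen after seeing the data, turned the sign of the difference to -0.11 (SE 0.27, adjusted p = 0.851). No direction is given for Gps1 for this reason.

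**Figure D2:**
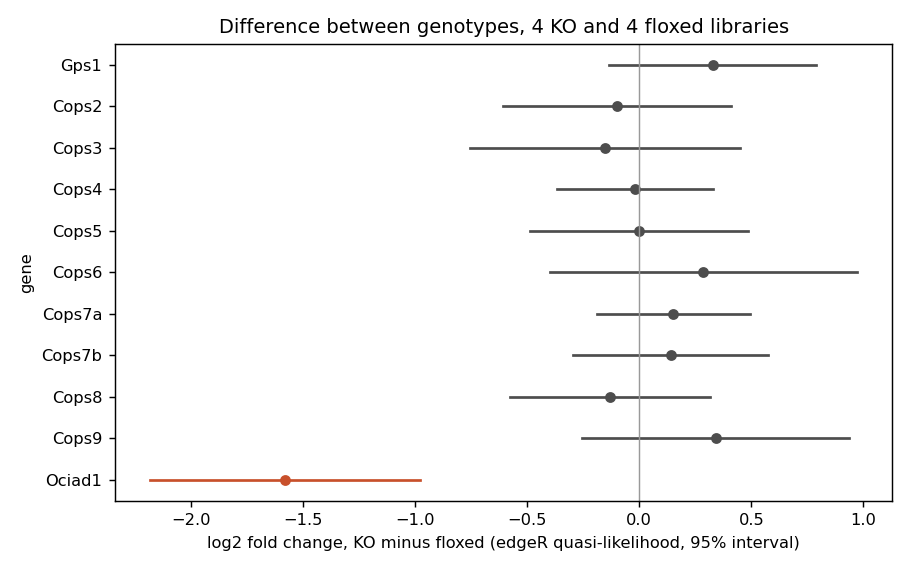
Log2 fold change, KO minus floxed, of each gene (points) with its 95% interval (lines) from edgeR's quasi-likelihood fit over 8 libraries. The intervals of the 9 CSN genes and Cops9 cross 0, and that of Ociad1, in orange, does not.

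Cops9, which encodes the small acidic CSN subunit also called CSNAP and is not among the 9 genes, was at 18.7, 9.48, 15.7 and 12.6 CPM in floxed and 22.9, 21.5, 14.1 and 12.9 CPM in KO libraries. Its log2 fold change was 0.34 (SE 0.27, adjusted p = 0.501). Floxed replicate 3 was the lowest and both KO libraries with low numbers were the highest, as for Cops6 on the KO side.

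The levels of the 9 genes can be compared with each other only per length, so CPM was divided by the spliced length of the counted transcript. By the mean over 8 libraries the order was Cops7a (17.7 CPM per kilobase), Cops5 (17.6), Cops8 (16.1), Cops3 (15.2), Cops4 (14.2), Cops6 (12.6), Cops2 (12.2), Gps1 (6.53) and Cops7b (3.73). From Cops7a to Cops2 each gene's range over the libraries overlapped that of the next, and the order among these 7 did not exceed their spread. Per spliced kilobase the range of Cops2, from 8.68 to 17.1 CPM per kilobase, did not overlap that of Gps1, from 4.29 to 8.31. Gps1 was above Cops7b in all 8 libraries, although their ranges overlapped between 4.29 and 4.48. Counts cover the genomic span with introns, and divided by the length of that span instead, Cops6 was the highest at 6.28 CPM per kilobase and Cops7b stayed the lowest at 0.758, and Cops4 went from rank 5 to rank 8. Gps1 rose from rank 8 to rank 4 by span, at 2.49 CPM per kilobase, and its mean was then above that of Cops2 (1.44). The low place of Gps1 thus holds per spliced kilobase only, and it is also subject to the reads shared with Gm9816.

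**Figure D3:**
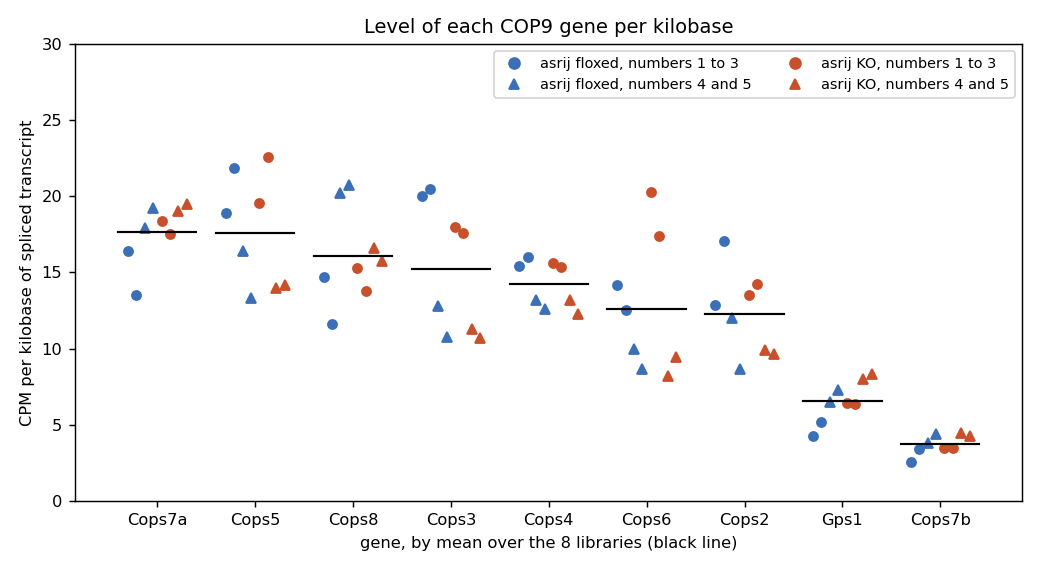
CPM per kilobase of spliced transcript (vertical axis) of each CSN gene in each library, ordered by the mean over 8 libraries (black lines), with floxed in blue, KO in orange, circles for numbers 1 to 3 and triangles for 4 and 5. The 7 genes from Cops7a to Cops2 overlap, and Gps1 and Cops7b lie below them on this scale.

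The levels of the CSN genes followed the numbers of the libraries. The 4 libraries numbered 1 to 3 (2 floxed, 2 KO) and the 4 numbered 4 and 5 (2 floxed, 2 KO) did not overlap for 8 of the 9 genes. This grouping was seen in earlier results of these data, no label calls it a batch, and it is described without a test. Cops2, Cops3, Cops4, Cops5 and Cops6 were higher in numbers 1 to 3, which held for 5 of 9 CSN genes and for 13.3% of all genes tested. Gps1, Cops7b and Cops8 were lower there, which held for 3 of 9 and for 12.5% of all genes tested. Gps1 was close to a tie, with at most 11.7 CPM in numbers 1 to 3 and at least 11.8 CPM in numbers 4 and 5. The same bounds for Cops8 were 35.0 and 36.1 CPM. Cops7a overlapped, at 17.9 to 24.4 CPM in numbers 1 to 3 and 23.8 to 25.9 CPM in numbers 4 and 5.

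The largest of these ratios of mean CPM were 1.78 for Cops6 and 1.67 for Cops3, which was between 28.9 and 33.7 CPM in numbers 1 to 3 and between 17.6 and 21.0 CPM in numbers 4 and 5. Cops2 and Cops5 both had a ratio of 1.43, and Cops4 had 1.22. In the other direction, numbers 4 and 5 were higher by 1.35 times for Gps1, 1.32 times for Cops8 and 1.31 times for Cops7b. The 9 genes were thus not all on the same side. CSN5 and CSN6, the MPN pair, were both on the side that was higher in numbers 1 to 3, and the PCI subunits were on both sides.

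Several measures moved with these library numbers. The transcript counts summed to between 90688957 and 120858975 in numbers 1 to 3 and to between 56661356 and 78541550 in numbers 4 and 5. Over protein-coding genes, the median GC content of the spliced transcript was 44.7% for the 1897 genes higher in numbers 1 to 3 and 56.6% for the 1605 genes lower there. The median genomic span of these sets was 36.6 and 10.7 kilobases. Counts cover introns as well, whose GC content was not measured. The 5 CSN genes that were higher had a GC content of 37.3% to 49.6%, and the 3 that were lower had 48.1% to 53.7%, with Cops7a at 56.9%. The spans of the 5 higher CSN genes ran from 3.58 kilobases for Cops6 to 29.5 for Cops4. Those of the 3 lower ones ran from 4.80 for Gps1 to 26.5 for Cops7b, so the 2 ranges overlapped. The part of depth, base composition and span in the split of the CSN genes was not tested.

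**Figure D4:**
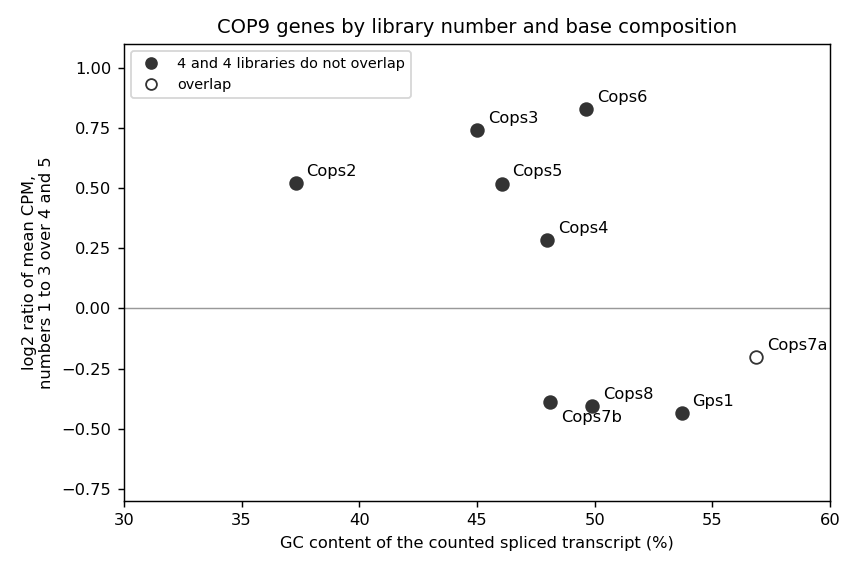
Log2 ratio of mean CPM in the 4 libraries numbered 1 to 3 over the 4 numbered 4 and 5 (vertical axis) against the GC content of the counted transcript without introns (horizontal axis) for the 9 CSN genes, filled where the libraries do not overlap. Cops2, Cops3, Cops4, Cops5 and Cops6 lie above 0, and Cops7b, Cops8, Gps1 and the open Cops7a below.

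With library numbers 4 and 5 as a term in the edgeR fit, 4059 genes were called between genotypes (18.5% of those tested) and still 0 of the 9 CSN genes. Their standard errors shrank in that fit, to 0.10 for Cops3 and 0.12 for Gps1. The smallest adjusted p of the 9 was 0.0838, for Gps1 with a log2 fold change of 0.34. Gps1 was the 1 of the 9 with an unadjusted p under 0.05 in that fit, beside 34.5% of all genes. Its value is subject to the reads shared with Gm9816, and the term was not fitted with both genes counted together. Floxed replicate 3 stood apart from the other floxed libraries over all genes, and without it 3875 genes were called (17.5% of those tested), again with 0 CSN genes.

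Upstream sequence was looked at because the CSN genes formed opposite sets in the library split. RefSeq promoters (GRCm38.p6) were found for 8 of the 9 genes, and the nearest to the counted transcript was used. The 250 bases before the start are shown for Cops3 and Cops6, which had the largest ratios toward numbers 1 to 3, and for Gps1 and Cops7b, which went the other way. Cops8 also went the other way, by 1.32 times against 1.31 times for Cops7b, and is not shown. Of the motifs given below, Cops8 held 4 matches and Cops7b 0, so the sequences shown do not stand for that side. Capitals mark matches on either strand to the GC box GGGCGG (reverse complement CCGCCC) and to the ETS motif CCGGAAG (reverse complement CTTCCGG).
Cops3, minus strand of chr11:59839768-59840017: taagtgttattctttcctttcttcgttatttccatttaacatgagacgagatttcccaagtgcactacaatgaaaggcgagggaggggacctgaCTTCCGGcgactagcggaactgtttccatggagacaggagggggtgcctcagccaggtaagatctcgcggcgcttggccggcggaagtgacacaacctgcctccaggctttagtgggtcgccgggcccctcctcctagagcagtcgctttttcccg
Cops6, plus strand of chr5:138160852-138161101: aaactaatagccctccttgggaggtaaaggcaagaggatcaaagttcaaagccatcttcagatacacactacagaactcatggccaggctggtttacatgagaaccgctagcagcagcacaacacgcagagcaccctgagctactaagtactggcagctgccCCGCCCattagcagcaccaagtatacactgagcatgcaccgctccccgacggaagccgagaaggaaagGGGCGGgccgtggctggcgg
Gps1, plus strand of chr11:120784020-120784269: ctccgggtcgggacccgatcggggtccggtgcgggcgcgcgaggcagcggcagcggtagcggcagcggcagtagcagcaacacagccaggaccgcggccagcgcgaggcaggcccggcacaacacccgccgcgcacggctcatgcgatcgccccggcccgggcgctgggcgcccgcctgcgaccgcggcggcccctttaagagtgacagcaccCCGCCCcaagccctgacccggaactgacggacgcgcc
Cops7b, plus strand of chr1:86582671-86582920: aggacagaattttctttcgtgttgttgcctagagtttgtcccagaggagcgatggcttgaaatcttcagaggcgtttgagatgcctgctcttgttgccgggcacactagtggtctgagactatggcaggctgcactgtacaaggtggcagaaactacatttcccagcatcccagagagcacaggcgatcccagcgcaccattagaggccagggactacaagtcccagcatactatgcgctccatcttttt

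The promoters of the CSN genes were diverse in base composition, with 76.8% GC in Gps1 and 51.2% in Cops4. The ETS motif occurred in Cops2, Cops3, Cops7a and Cops8, 4 of 8 promoters, and in 6.90% of all 32817 promoters in the table. The GC box occurred in Gps1, Cops4, Cops6, Cops7a and Cops8, 5 of 8, and in 32.7% of all. The CCAAT box (CCAAT) was found in Cops4 alone and in 33.8% of all promoters, and the E-box (CACGTG) in Cops8 alone and in 6.02% of all. The TATA box (TATAAA), the CRE core (TGACGT) and the NRF1 core (GCATGCGC) were in none of the 8, with 12.4%, 6.46% and 2.25% of all promoters. The reference of all promoters was not limited to genes tested here or to 1 promoter per gene, and no difference from it was tested. None of these motifs was on only the higher or only the lower side of the library split, apart from the CCAAT box and E-box matches in a single gene each.

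Coverage along the CSN genes was compared through the share of a gene's count that falls on its most counted shorter transcript within the 5′ 60% of the span. For Cops7b this share was between 7.16% and 13.2% in numbers 1 to 3 and between 3.83% and 6.36% in numbers 4 and 5. Cops8 showed the same order, with 6.90% to 12.0% against 1.86% to 4.20%. For Cops6 the share was between 34.7% and 42.7% in floxed and between 27.4% and 34.5% in KO libraries, the 1 gene of 9 whose genotypes did not overlap. This separation depends on the full Cops6 count, which includes the 3′ end shared with Mcm7. The Cops6 transcript clear of Mcm7 held 74.5% of that count in floxed replicate 3 and 69.7% in KO replicate 3. The 5′ shares of these libraries were 34.7% and 34.3%. Relative to the clear transcript KO replicate 3 was thus above floxed replicate 3, and the genotypes overlapped. The Cops4 share was highest in floxed replicates 1 and 3, at 28.6% and 40.1%, and lay between 13.4% and 18.9% in the other libraries. The shares were computed for the 9 CSN genes only, so how often those of other genes separate by genotype or library number is not known. They are descriptions of coverage, and their part in the levels above was not tested.

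The genes whose pattern over the 8 libraries was most like the mean log2(CPM + 1) of the 9 CSN genes were Uap1, Cnot6, Snrpd2, Fam133b and Stx8, with Pearson's r between 0.970 and 0.977 among 9102 protein-coding genes. The mean itself was between 4.56 and 4.71 in floxed and between 4.57 and 4.83 in KO libraries, and its highest values were in KO replicates 2 and 3. Cnot6, Snrpd2, Fam133b and Stx8 were also higher in numbers 1 to 3 with no overlap, so these correlations share the library split.

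The complexes most like the CSN in architecture are the lid of the 19S proteasome and eIF3, which are also built of PCI and MPN subunits. None of the 9 lid genes and none of the 8 eIF3 genes was called, against 2.97% of all genes, and 1 lid gene and 0 eIF3 genes had an unadjusted p under 0.05, against 21.8% of all genes. The median log2 fold change was 0.21 for the lid and -0.004 for eIF3, beside -0.001 for the CSN. Psmd7, the MPN partner of the lid's deubiquitinase, was at 39.3 to 47.8 CPM in floxed and 62.2 to 63.3 CPM in KO libraries, with a log2 fold change of 0.50 that missed the threshold (SE 0.13, adjusted p = 0.0602). Psmd3, a PCI subunit of the lid, had 0.35 (adjusted p = 0.257). Eif3k had 0.51 (adjusted p = 0.261) and Eif3c, a core subunit, -0.27 (adjusted p = 0.245). Libraries numbered 1 to 3 and 4 and 5 did not overlap for 4 of 9 lid genes and 7 of 8 eIF3 genes, beside 8 of 9 for the CSN and 25.7% of all genes. These groups hold few genes and the differences between their counts were not tested.

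The substrates of the CSN are the neddylated cullins. Of 10 genes for cullins and their RING partners, 0 were called and 0 had an unadjusted p under 0.05 (2.97% and 21.8% of all genes), with a median log2 fold change of -0.07. Cul1, the scaffold of SCF ligases, was at 58.2, 66.6, 36.5 and 36.6 CPM in floxed and 49.9, 50.9, 29.9 and 31.4 CPM in KO libraries (log2 fold change -0.29, adjusted p = 0.580). It followed the library numbers as Cops3 did. Cul4a, a scaffold of ligases that use DDB1, had a log2 fold change of 0.55 (adjusted p = 0.361). Its levels were 68.8, 137, 46.8 and 48.5 CPM in floxed and 115, 123, 102 and 103 CPM in KO libraries. Only floxed replicate 3 overlapped KO. Without it Cul4a was called in edgeR (1.03, adjusted p = 0.00406), as were 17.5% of all genes tested in that fit. Its paralog Cul4b had -0.73 (adjusted p = 0.299), and Cul3, the scaffold for BTB receptors, had -0.49 (adjusted p = 0.263).

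Of 14 genes of the NEDD8 pathway, 0 were called, beside 2.97% of all genes. An unadjusted p under 0.05 was reached by 3 of the 14, a share near the 21.8% of all genes. Nedd8, the modifier itself, was at 42.1, 28.9, 37.2 and 34.3 CPM in floxed and 55.4, 51.5, 40.1 and 41.6 CPM in KO libraries. KO overlapped floxed only at floxed replicate 1, and the log2 fold change was 0.41 (SE 0.17, adjusted p = 0.208). Dcun1d3 and Dcun1d4, which help to load NEDD8 on cullins, both had -0.55 (adjusted p = 0.0785 and 0.186). Uba3, a subunit of the NEDD8-activating enzyme, had -0.41 (adjusted p = 0.473), Ube2m, the main conjugating enzyme, 0.49 (adjusted p = 0.414), and Senp8, a NEDD8 protease, -0.16 (adjusted p = 0.825). Ube2m was on the opposite side of the library split from Uba3, at 40.6 to 76.3 CPM in numbers 1 to 3 and 82.2 to 118 CPM in numbers 4 and 5.

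Of 23 cullin adaptors and substrate receptors, 0 were called and 1 had an unadjusted p under 0.05, beside 2.97% and 21.8% of all genes. It was Fbxo7, an F-box protein, with 33.4, 63.3, 31.1 and 32.8 CPM in floxed and 71.8, 75.0, 83.9 and 80.3 CPM in KO libraries. The groups did not overlap, and the log2 fold change of 0.95 missed the threshold (SE 0.24, adjusted p = 0.0592). Fbxo9 had 0.54 (adjusted p = 0.244), and like Fbxo7 was highest among floxed libraries in replicate 3. Haemoglobin counts were also higher in KO libraries and highest among floxed in replicate 3, and their part in these values was not tested. Of 11 CSN-associated factors, 0 were called and 0 had an unadjusted p under 0.05, beside the same 2.97% and 21.8% of all genes. Prkd1, a kinase known to bind the complex, was at -0.71 (adjusted p = 0.489) and under 1 CPM in every library. Ivns1abp was at -0.38 (adjusted p = 0.380).

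Of 24 genes reported as CSN or CSN5 substrates or in the p53 circuit, 1 was called, beside 2.97% of all genes. It was Hif1a, which fell by 1.02 on the log2 scale (SE 0.20, adjusted p = 0.0319, edgeR). Hif1a encodes the oxygen-regulated transcription factor that CSN5 is known to bind. It was at 75.0, 48.0, 50.4 and 46.8 CPM in floxed and 29.0, 32.0, 24.7 and 23.2 CPM in KO libraries, without overlap. Its span lies within that of the antisense gene Gm15283, which had 101% of its total count, so reads of the pair cannot be told apart, and the call was lost in the 6 libraries numbered 3 to 5, both with the replicate number as a block (log2 fold change -0.86, adjusted p = 0.122) and without it (-0.84, adjusted p = 0.236). It was also lost on leaving out any 1 library other than floxed replicate 3, with an adjusted p between 0.0576 and 0.119. In the list 7 of 24 genes had an unadjusted p under 0.05, beside 21.8% of all genes. Bax, the p53 target of apoptosis, had 0.72 (adjusted p = 0.0534) with no overlap of genotypes, though its count is shared with the readthrough gene Gm45808, and Smad4 had -0.55 (adjusted p = 0.0605). Of the 97 genes in the related lists, 6 were called by DESeq2 (6.19%, beside 11.2% of all genes), namely Hif1a, Bax, Smad4, Fbxo7, Psmd7 and Dcun1d3. With numbers 4 and 5 as a term 17 of the 97 were called (17.5%), beside 18.5% of all genes.

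Trp53, which encodes p53, was at 38.4, 42.0, 46.0 and 38.1 CPM in floxed and 51.4, 43.1, 44.9 and 42.4 CPM in KO libraries. The groups overlapped, and the log2 fold change was 0.14 (SE 0.14, adjusted p = 0.590). Mdm2, the main ubiquitin ligase of p53, was at 85.2 to 89.1 CPM in floxed and 65.1 to 78.1 CPM in KO libraries with no overlap, and its log2 fold change of -0.29 missed the threshold (SE 0.13, adjusted p = 0.216). Cop1, another ligase of p53, had -0.14 (adjusted p = 0.634). These are transcript levels, and neither the proteins of the complex nor its activity on cullins was measured in these libraries.

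**Figure D5:**
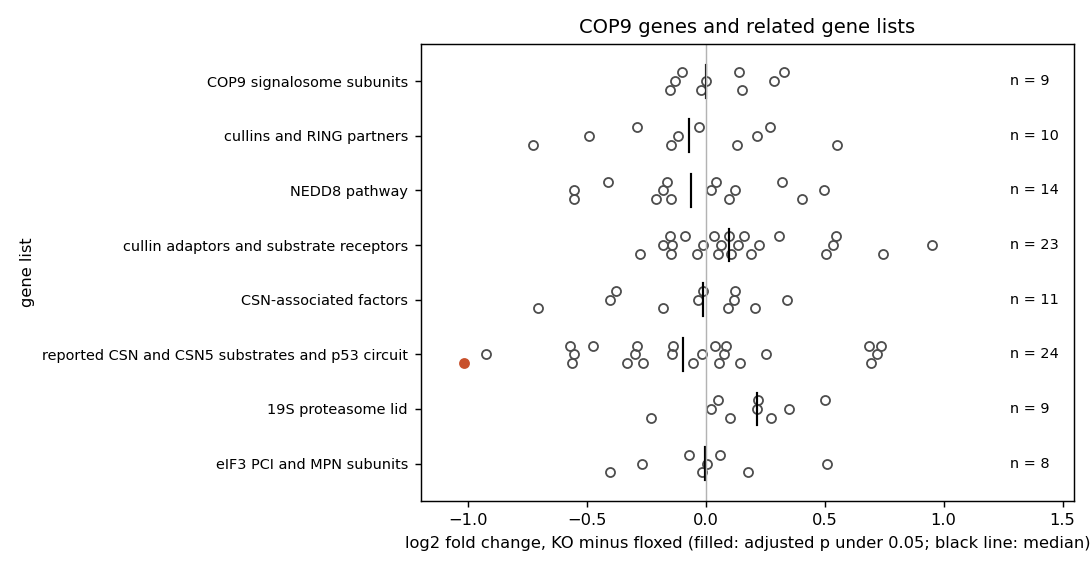
Log2 fold change, KO minus floxed (horizontal axis), of each gene (circles) in the CSN list and 7 related lists, with the median of each list as a black line and the number of genes at the right. The 9 CSN genes lie between -0.15 and 0.33, and the filled circle is Hif1a.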

How the data were processed

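LT-HSC RNA was sequenced in 8 libraries, 4 per genotype. The authors used FastQC and Trim Galore on the reads and Bowtie 2 for alignment, by their methods to the transcripts of GRCm38/mm10, and they deposited raw counts, whole numbers for each of 138930 Ensembl transcripts, with the counting tool not given in the sources used here. The unit of 7 tab-separated files with a comma-separated name was recorded as other, because an automatic check reads them at commas, and they hold the same deposited counts. Transcripts were mapped to genes with GENCODE M21 (138789 identifiers found). Each gene took the count of the transcript that had the most counts in all libraries together, since reads are counted on several transcripts. The strand setting is not given either. Of transcripts with at least 100 counts that lie inside an intron of another gene, the outer transcript had as many counts or more in every library in 4446 of 4446 pairs on the same strand and in 5669 of 5669 on opposite strands. Counts were therefore read as covering the genomic span with introns and both strands, so that overlapping genes share reads.

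In edgeR 4.0.16 under R 4.3.3, filterByExpr and TMM normalization were followed by glmQLFit and glmQLFTest. Benjamini-Hochberg adjustment covered all 21902 genes tested. limma-voom (limma 3.58.1) and DESeq2 1.42.0 were alternatives, and the code of all was run on simulated counts with 200 changed genes. The simulated counts had no split by library number, so they do not show how the tests behave under that split. The Cops7b to Cops7a ratio was compared by an exact two-sided permutation test over 70 labelings. Log values outside the fits are log2(CPM + 1). Shared sequence was counted as 50-base stretches present in GENCODE transcripts of other genes, and overlaps as bases common to counted spans. The remaining steps ran in Python 3.11.15 (pandas 2.3.3, scipy 1.17.1). Library depth was 56661356 to 120858975 transcript counts. The p-values rest on the spread between libraries of the same genotype, 1 library per mouse. The main fit had no term for library numbers, so its spread includes the library split as well as differences between mice.

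The members and lists were chosen with earlier results of these data known. Named genes were the 9 members, Ociad1, Cops9, from each related list the called genes (at most 5) and the 2 with the smallest p otherwise, 9 fixed genes of the p53 and NEDD8 pathways, and the 5 genes most like the members' mean. Gm9816 and the overlapping genes were named after their values were seen.

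Replicates 3, 4 and 5 occur in both genotypes in the labels, though the mice differ. Deviations of same-numbered libraries from their genotype means correlated at 0.427, 0.454 and 0.707, all above 0.1, so the numbers were taken as pairs and a replicate block over these 3 pairs was an alternative. Differently numbered libraries of 1 set (1 to 3, or 4 and 5) correlated at 0.359 to 0.711 too, so these values do not set the pairs apart from the 2 sets of numbers. No pair of libraries of the same genotype was close enough in counts to be a repeated deposit, and pairs across genotypes were not checked. The other alternatives were other normalizations, filters, sums over transcripts, a term for numbers 4 and 5 and leaving out each library. A transcript clear of other genes, Gps1 counted with Gm9816, and replicates 3 to 5 without a block were added after seeing the data.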

Additional observations from a re-analysis of the deposited data

Results flagged for a closer look

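Of 100 groups of 4 libraries of a genotype examined, over the named genes, the Cops7 ratio and the 5′ shares, 3 held a library that stood apart from the remaining 3. A rate of 1 in 20 would give about 5 for like libraries. Each group here mixed numbers 1 to 3 with 4 and 5, so that rate sets no expectation for these data. None was a CSN gene. On the log2(CPM + 1) scale Fbxo7 was at 6.01 in floxed replicate 3 and between 5.01 and 5.10 in the other floxed libraries. Hif1a was at 6.25 in floxed replicate 1 and between 5.58 and 5.68 in the others. Eif3c was at 6.34 in floxed replicate 4 and between 6.50 and 6.53 in the others.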

How the results depend on the processing

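In 21 alternative fits 0 of the 9 CSN genes were called. Their smallest adjusted p was 0.0838 and their largest absolute log2 fold change 0.50. Of 189 values 22 changed sign, 13 of these on leaving out 1 library, and none of the 22 was more than 0.131 from 0. No CSN gene had under 278 counts in a library, and reads shared between overlapping genes remain in the counts.

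Genes called over all genes numbered 651, 2447 with DESeq2, 4059 with numbers 4 and 5 as a term, 261 with the absolute log2 fold change above 1.5 and 4766 at an unadjusted p under 0.05, and between 61 (without floxed replicate 1) and 3875 (without floxed replicate 3) on leaving out 1 library. It was 48 with the replicate block and 24 in the same 6 libraries without it. Hif1a was called neither with the block (adjusted p = 0.122) nor in the same 6 libraries without it (0.236), and Ociad1 was called with it (0.0289) but not without it (0.218). No other call of a named gene changed with the block. Related genes called numbered 1, 6 with DESeq2, 2 by library totals only, 2 with no filter, 2 by sums over transcripts, 17 with the term, 0 with the block or replicates 3 to 5 without it, 0 with the fold threshold, 12 at an unadjusted p, and 0 to 12 on leaving out 1 library.

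Library totals alone moved the median of all genes to -0.20 and of the CSN genes to -0.18, with 136 genes called higher and 772 lower, where TMM gave 268 and 383. There Cops7a was at -0.033, Cops7b -0.054, Trp53 -0.042, Uap1 -0.13, Cnot6 -0.060 and Stx8 -0.0065. limma-voom gave 262 higher and 221 lower. Cops5 was at 0.012 with DESeq2 or RLE normalization, 0.046 with no filter, 0.0011 in replicates 3 to 5 and 0.022 by sums over transcripts. Cops4 was at 0.025 with no filter, Gps1 at -0.11 with Gm9816, and Senp8 at 0.071 with the block. On leaving out 1 library the CSN median ranged from -0.059 to 0.11, Cops2 from -0.24 to 0.091, Cops3 from -0.30 to 0.0033, Cops4 from -0.070 to 0.066, Cops5 from -0.14 to 0.13, Cops6 from 0.063 to 0.50, Cops7a from 0.071 to 0.23, Cops7b from 0.033 to 0.27, Cops8 from -0.26 to -0.010, Gps1 from 0.23 to 0.46, Senp8 from -0.33 to 0.27 and Uap1 from -0.0068 to 0.13. The difference in the Cops7b to Cops7a ratio was 0.043 by sums over transcripts (exact permutation p = 0.886). Between the highest and the lowest CSN gene the levels differed by 4.74 times per kilobase of spliced transcript and by 8.29 times per kilobase of span. The causes were not tested.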
